A study of Homo sapiens with 18 samples.

Results

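The genes described here encode the enzymes that build serine, charge folate with one-carbon units, and make asparagine and proline. They are PHGDH, PSAT1, PSPH, SHMT1, SHMT2, MTHFD1, MTHFD2, MTHFD1L, ASNS and PYCR1, 10 genes chosen by symbol among the 56269 genes of a table of normalized counts from human IMR90 cells, a line of primary lung fibroblasts. All 10 were in the table, and all 10 had a mean above the minimum of 10 normalized counts that 13686 genes of the table reached. The study asked how hyaluronan (HA), a long sugar polymer of the extracellular matrix, changes the response of cells to oxidative stress when its chains are long or shortened. RNA was sequenced from 6 groups of 3 replicates, which the study calls biological, giving 18 libraries.

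Pre-incubation lasted 6 h, with PBS or with 1 of a pair of HA preparations, cNSF and fNSF, each at 20 μg/ml. Both came from skin fibroblasts of the naked mole-rat: cNSF had been heated with inactivated hyaluronidase and served as the uncleaved control, and fNSF had been partly cut with active hyaluronidase. In 9 libraries, 3 per pre-incubation, an exposure of 1 h to 200 μM tBHP (tert-butyl hydroperoxide, an organic peroxide that oxidizes cell components) followed, and RNA was taken 6 h after it began. The other 9 libraries came from cells collected directly after the pre-incubation. A difference between cells with and without tBHP therefore also holds the later collection and the changes of medium, and these cannot be told apart from the oxidant. All cells were grown in medium with fetal bovine serum, were of 1 line, and carried no engineered change that the labels name.

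Serine is made from a glycolytic intermediate in 3 steps, oxidation by PHGDH, transamination by PSAT1 and dephosphorylation by PSPH. Serine hydroxymethyltransferase, SHMT1 in the cytosol and SHMT2 in mitochondria, then splits serine into glycine and a one-carbon unit carried by folate. MTHFD1 interconverts the folate one-carbon forms in the cytosol, whereas MTHFD2 and MTHFD1L perform the corresponding steps in mitochondria and release formate, so that the 2 compartments are joined in 1 cycle. ASNS makes asparagine from aspartate with nitrogen from glutamine, and PYCR1 performs the last step of proline synthesis in mitochondria. PHGDH, PSAT1, SHMT2, MTHFD2 and ASNS are textbook targets of ATF4, a transcription factor whose protein accumulates when amino acids are scarce or protein folding or mitochondria are disturbed.

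In GENCODE release 29 (GRCh38, the build of the counts) the genes of serine synthesis are annotated with PHGDH at chr1:119648411-119744226 (plus strand), PSAT1 at chr9:78297143-78330093 (plus strand) and PSPH at chr7:56011051-56051604 (minus strand). The folate genes are SHMT1 at chr17:18327860-18363563 (minus strand), SHMT2 at chr12:57229327-57234935 (plus strand), MTHFD1 at chr14:64388031-64463457 (plus strand), MTHFD2 at chr2:74198562-74217565 (plus strand) and MTHFD1L at chr6:150865549-151101887 (plus strand). The remaining members lie apart, ASNS at chr7:97852118-97872542 (minus strand) and PYCR1 at chr17:81932384-81942412 (minus strand). Counts were made over whole genes, so no exon or isoform is resolved.

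ATF4 with a C/EBP partner binds a composite DNA element, and short stretches that hold its core are shown here because they are the sequence feature most often tied to these genes. The 250 bases before each RefSeq start site (GRCh38.p14) were searched on both strands for TGATGNAA, the core of this element, for CACGTG, the E-box read by MYC and related factors, and for TGACNNNGC, the core of the antioxidant response element read by NRF2. The promoter table held 7 of the 10 genes, and PSPH, SHMT2 and PYCR1 were not searched. Each of the following stretches of 30 bases is given 5′ to 3′ on the strand of its gene, with the match in capitals.
ASNS, chr7:97872458-97872487, minus strand: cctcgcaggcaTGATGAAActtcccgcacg
MTHFD1L, chr6:150866346-150866375, plus strand: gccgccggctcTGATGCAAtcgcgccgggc
MTHFD1L, chr6:150866320-150866349, plus strand: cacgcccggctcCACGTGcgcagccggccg
MTHFD1, chr14:64388323-64388352, plus strand: tggccagtccctaagCACGTGggttgggtt

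The ATF core was thus present for ASNS, ending 61 bases before the start site, and for MTHFD1L, and it was held by 3.89% of the 27305 genes with a promoter in the table. The E-box was present for MTHFD1L and MTHFD1, against 7.73% of all genes, and the antioxidant core for none of the 7, against 13.2%. MTHFD1L has several annotated start sites, and its matches lay before 2 of them. A match describes letters in this window only. PHGDH, PSAT1, SHMT1 and MTHFD2 held none of the 3 motifs in the bases searched.

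A normalized count is a gene's reads scaled by the size factor that DESeq2 gave the library. The libraries held between 20261103 and 26287660 reads on genes, and the fewest reads for any of the 10 genes in a library were 222, for SHMT1. Replicates scattered more in tBHP-exposed cells. The median SD of the 10 genes on the log2 scale was 0.043 without tBHP and 0.10 after it, and for all genes tested it was 0.067 and 0.17. Of 10 fibroblast markers all 10 had a mean of at least 10, with sums of 458889 to 722451 over the libraries, while KRT5, SFTPC and SFTPB among 7 epithelial markers and CDH5 among 6 endothelial markers were at 0 in every library. The remaining markers of other cells were low or carried by 1 or 2 genes of their list, and their sums ranged from 697 to 1518 for the epithelial list, which rested on CLDN4, from 342 to 676 for the endothelial list and from 27.5 to 96.5 for the immune list of 6 genes. The endothelial sum was 342 to 386 without tBHP and 395 to 676 after it, and the immune sum 27.5 to 42.0 and 53.2 to 96.5. The epithelial sum was 1327 to 1518 without tBHP and 697 to 1468 after it, and the fibroblast sum 594921 to 616446 and 458889 to 722451. The part of these sums in the results below was not tested. In RNA from whole cultures, a change in the share of cells that express a gene and a change in RNA per cell cannot be told apart.

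After tBHP the genes of serine synthesis, the mitochondrial folate genes SHMT2, MTHFD2 and MTHFD1L, and ASNS were higher in each pre-incubation, the cytosolic SHMT1 and MTHFD1 were lower in each, and PYCR1 of proline synthesis was higher in PBS and cNSF cells. Without HA, 8 of the 10 genes rose and 2 fell. The counts were again 8 and 2 with cNSF, and with fNSF 7 rose, 2 fell and PYCR1 did not pass the test (limma on log2(normalized count + 1), all 18 libraries in 1 model, adjusted p below 0.05 over 13686 genes). edgeR and DESeq2 called PYCR1 in fNSF cells as well. The response was broad across the transcriptome. The share of all genes tested that rose was 24.2% with PBS, 24.0% with cNSF and 19.2% with fNSF, and the share that fell was 26.9%, 26.8% and 22.7%. The balance turned under edgeR, which called 29.7%, 28.8% and 24.2% of all genes higher and 23.5%, 23.8% and 19.1% lower. The median log2 change of the 10 genes was 1.18, 1.21 and 1.08 in PBS, cNSF and fNSF cells, beside 0.0043, -0.00053 and -0.034 for all genes tested. Together the 10 genes took up 0.0965% ± 0.0009 (SD, n = 3) of the reads in PBS cells and 0.193% ± 0.0044 after tBHP, 0.0971% ± 0.0025 and 0.196% ± 0.012 in cNSF cells, and 0.0972% ± 0.0010 and 0.197% ± 0.0043 in fNSF cells.

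**Figure D1:**
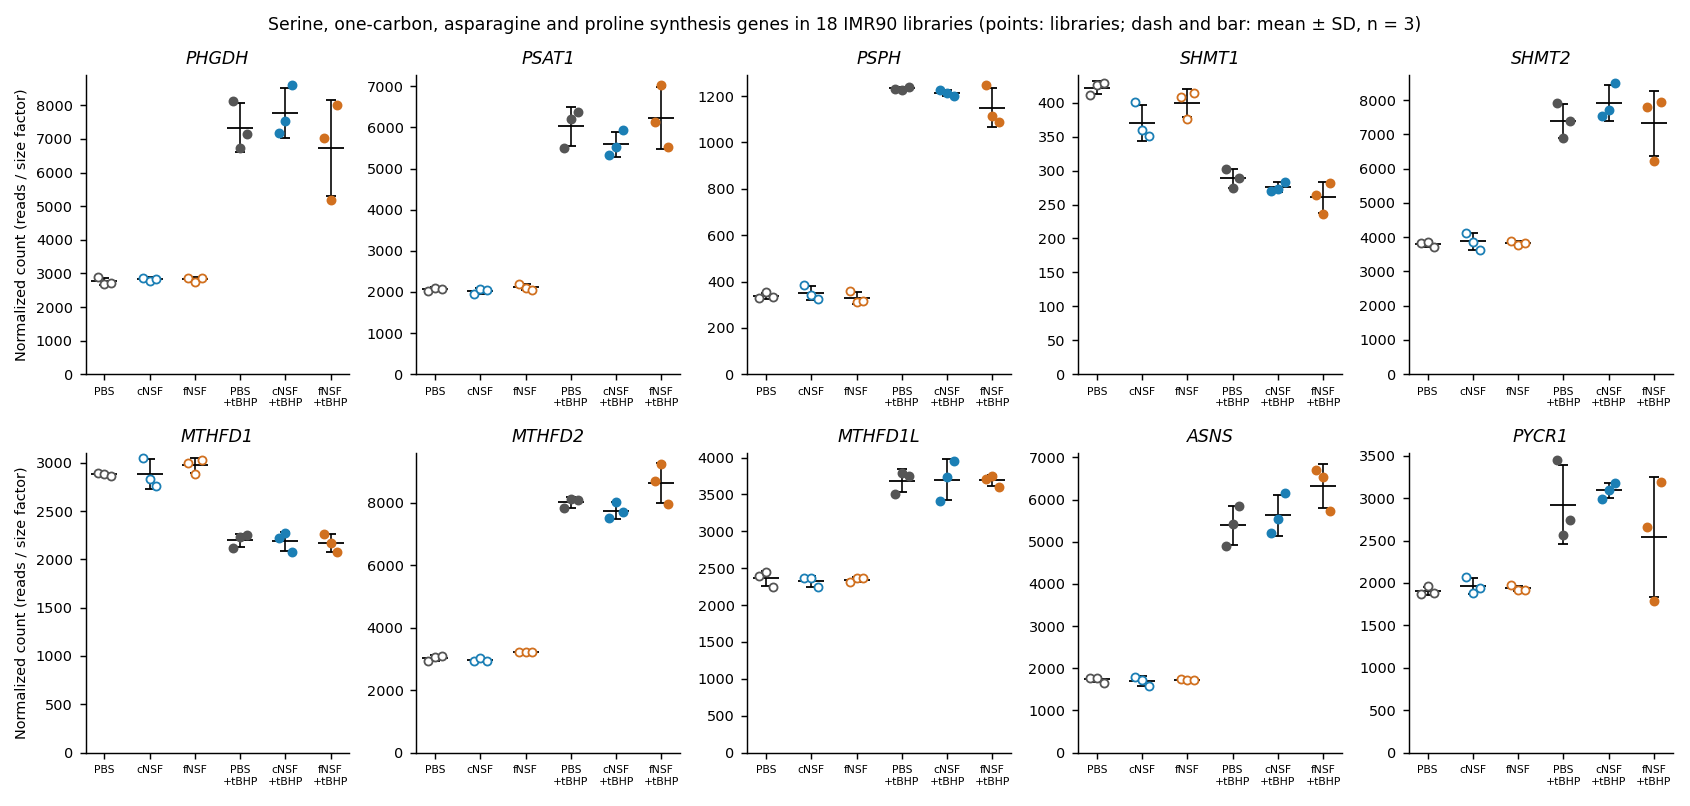
Normalized counts (reads divided by the size factor, linear axes from 0) of the 10 genes in each of the 18 libraries, by pre-incubation, without tBHP (open points) and after it (filled points); dashes and bars are the mean and SD of 3 libraries. After tBHP 8 genes lie higher and SHMT1 and MTHFD1 lower, except that PYCR1 in fNSF replicate 2 after tBHP lies below the 3 fNSF libraries without it, and the fNSF libraries after tBHP are the most scattered for PHGDH and PYCR1.

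The 3 enzymes of serine synthesis rose together. PHGDH, the dehydrogenase that commits the glycolytic intermediate 3-phosphoglycerate to serine, had 2888, 2685 and 2712 normalized counts in the PBS libraries and 8136, 6730.5 and 7140.4 after tBHP. The change was 1.41 on the log2 scale (standard error 0.11, adjusted p = 2.16e-08), or 2.65-fold. With cNSF it had 2871, 2762 and 2846 without tBHP and 7169, 7549 and 8619 after it, a log2 change of 1.46 (adjusted p = 1.6e-08). The ranges with and without tBHP did not overlap in either pre-incubation. In fNSF cells the counts were 2866, 2739 and 2857 without tBHP and 7020.4, 5199 and 8016 after it, a log2 change of 1.23 (adjusted p = 1.25e-07). The lowest PHGDH value after tBHP, in fNSF replicate 2, was still above all 9 libraries without it.

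PSAT1, the aminotransferase of the second step, had 2012, 2099 and 2081 normalized counts in PBS cells and 5490.3, 6211 and 6371 after tBHP, and the log2 change was 1.54 (standard error 0.08, adjusted p = 6.16e-11). After cNSF pre-incubation it went from 1951, 2083 and 2041 to 5325, 5528 and 5926, and in fNSF cells from 2194, 2094 and 2046 to 6138, 7031 and 5520.4. The log2 changes in these cells were 1.46 and 1.55 (adjusted p = 1.3e-10 and 5.99e-11). Every library after tBHP was above every library without it. The highest and the third lowest of the 9 values after tBHP were in fNSF replicates 2 and 3.

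PSPH, the phosphatase that releases serine, was the gene with the largest change of the 10 in PBS cells. It had 328, 353 and 335 normalized counts without tBHP and 1231, 1228 and 1239.7 after it, a rise of 3.64-fold, or 1.86 on the log2 scale (standard error 0.08, adjusted p = 5.21e-12). In cNSF cells it had 384, 340.1 and 326 without tBHP and 1226, 1214 and 1201 after it (log2 change 1.80), and in fNSF cells 358, 313 and 317 and 1246, 1115 and 1088 (log2 change 1.80). The 3 PBS libraries after tBHP differed from each other by less than the 3 without it, and no library after tBHP overlapped one without. A pseudogene with its own row, PSPHP1, had a mean over the 18 libraries of 54.1 normalized counts, 7.04% of that of PSPH. Reads shared between the copies could move the PSPH value, by a part that was not measured and that can differ between groups.

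The serine hydroxymethyltransferases moved in opposite directions. SHMT2, the mitochondrial enzyme, had 3819.9, 3860.3 and 3702 normalized counts in PBS cells and 7904, 6895 and 7387 after tBHP, and the log2 change was 0.96 (standard error 0.084, adjusted p = 5.69e-08). With cNSF it went from 4129, 3872 and 3621 to 7522, 7709 and 8502 (log2 change 1.03) and in fNSF cells from 3903, 3784 and 3842 to 7803, 6218 and 7933 (log2 change 0.92). Each value after tBHP was above each value without it. SHMT1, the cytosolic enzyme, had 411, 426 and 429 normalized counts in PBS cells and 302, 274 and 289 after tBHP, and the log2 change was -0.55 (standard error 0.086, adjusted p = 4.37e-05). It went from 401, 359.7 and 352 to 269.8, 273 and 284 in cNSF cells (log2 change -0.42, adjusted p = 0.000541) and from 408, 375 and 414 to 264, 236 and 281 in fNSF cells (log2 change -0.62, adjusted p = 1.71e-05). All 9 SHMT1 values after tBHP lay below all 9 without it. An exon of SHMT1 overlaps SMCR8 on the opposite strand, a gene with a mean of 1396 normalized counts, and the library kit does not mark strand, so reads in the overlap cannot be assigned to one of them.

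Of the folate dehydrogenases and ligases, MTHFD2 and MTHFD1L rose and MTHFD1 fell. MTHFD2L, another mitochondrial folate dehydrogenase, named after its values were seen, did not pass in any pre-incubation, with log2 changes of -0.12, -0.12 and -0.20 in PBS, cNSF and fNSF cells (adjusted p = 0.641, 0.651 and 0.478). MTHFD2, the mitochondrial dehydrogenase and cyclohydrolase, had 2935, 3057 and 3096 normalized counts in PBS cells and 7818, 8129.5 and 8094 after tBHP, and the log2 change was 1.40 (standard error 0.059, adjusted p = 3.89e-12). After cNSF pre-incubation it had 2939, 3039 and 2932 and 7506, 8037 and 7706 (log2 change 1.38), and in fNSF cells 3227, 3212 and 3214 and 8693, 9247 and 7966 (log2 change 1.42). The values with and without tBHP were far apart in all 3 pre-incubations, and the 3 fNSF libraries without tBHP lay close together. MTHFD1L, the mitochondrial enzyme that releases formate, had 2389.8, 2448 and 2249 normalized counts in PBS cells and 3506, 3791 and 3754 after tBHP, and the log2 change was 0.64 (standard error 0.063, adjusted p = 2.46e-07). Its changes in cNSF cells, from 2370.2, 2366 and 2239 to 3405, 3733 and 3958, and in fNSF cells, from 2306, 2362 and 2366 to 3709, 3756 and 3605, were 0.67 and 0.65 on the log2 scale. The groups with and without tBHP did not overlap.

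MTHFD1, the cytosolic enzyme that combines the activities, fell. It had 2899, 2884 and 2866 normalized counts in PBS cells and 2122, 2228 and 2248 after tBHP, and the log2 change was -0.39 (standard error 0.06, adjusted p = 3.62e-05). In cNSF cells it went from 3054, 2831 and 2764 to 2219, 2269 and 2079 (log2 change -0.40) and in fNSF cells from 2994, 2889 and 3033 to 2259, 2168 and 2077 (log2 change -0.46). The 9 libraries after tBHP were below the 9 without it, and the change was the smallest in size of the 10 genes in PBS and cNSF cells. ZBTB25, on the opposite strand of an MTHFD1 exon, had a mean of 156 normalized counts.

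The mitochondrial and cytosolic members were also compared as a ratio of normalized counts within each library, which cancels the size factor. These ratios are not corrected for gene length, so that the change is informative and the level is not. SHMT2 over SHMT1 was 9.29, 9.05 and 8.63 in the PBS libraries and 26.2, 25.1 and 25.6 after tBHP. Its mean was 10.5 ± 0.27 (SD, n = 3) in cNSF cells and 28.7 ± 1.1 after tBHP, and 9.64 ± 0.4 and 28 ± 1.6 in fNSF cells. The ratio rose in every pre-incubation with no overlap. MTHFD2 over MTHFD1 was 1.01, 1.06 and 1.08 in PBS cells and 3.68, 3.65 and 3.6 after tBHP. With cNSF it went from 1.03 ± 0.061 to 3.54 ± 0.16 and in fNSF cells from 1.08 ± 0.026 to 3.98 ± 0.24 (mean ± SD, n = 3). MTHFD1L over MTHFD1 went from 0.819 ± 0.032 to 1.67 ± 0.025 in PBS cells, from 0.807 ± 0.03 to 1.69 ± 0.19 in cNSF cells and from 0.789 ± 0.025 to 1.7 ± 0.053 in fNSF cells. For each of these ratios and pre-incubations the two-sided exact permutation test gave p = 0.1, the smallest that 3 libraries against 3 allow, so that this test cannot reach 0.05.

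**Figure D2:**
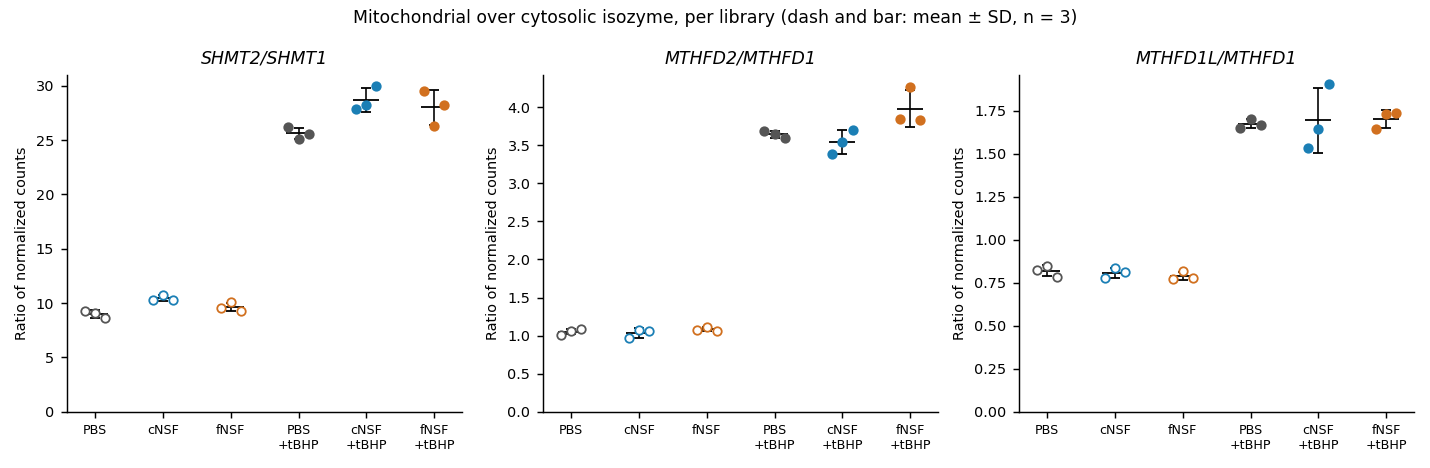
Ratio of the normalized count of the mitochondrial enzyme to that of its cytosolic counterpart in each of the 18 libraries (linear axes from 0; open points without tBHP, filled points after it; dashes and bars are the mean and SD of 3 libraries). All ratios after tBHP lie above all ratios without it, with means in PBS cells of 8.99 and 25.6 for SHMT2 over SHMT1 and 1.05 and 3.64 for MTHFD2 over MTHFD1.

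Within mitochondria the 2 folate enzymes did not rise equally, and MTHFD2 over MTHFD1L went from 1.28 ± 0.08 to 2.18 ± 0.046 in PBS cells, from 1.28 ± 0.035 to 2.1 ± 0.14 in cNSF cells and from 1.37 ± 0.023 to 2.34 ± 0.13 in fNSF cells (mean ± SD, n = 3, exact permutation p = 0.1 in each).

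ASNS, whose promoter stretch is shown above, had 1763, 1779 and 1658 normalized counts in PBS cells and 4904, 5411 and 5845 after tBHP, a rise of 3.1-fold, or 1.63 on the log2 scale (standard error 0.081, adjusted p = 3.52e-11). After cNSF pre-incubation it had 1788, 1727 and 1577 without tBHP and 5198, 5534 and 6154 after it, a log2 change of 1.73 (adjusted p = 1.66e-11). In fNSF cells it had 1738, 1730.4 and 1713 and 6707, 6541 and 5740.2, a log2 change of 1.87 (adjusted p = 5.59e-12). No library after tBHP overlapped one without, and the 2 highest of all values were in fNSF cells after tBHP.

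PYCR1, the mitochondrial pyrroline-5-carboxylate reductase, was the least even of the 10 genes. It had 1874, 1959 and 1877 normalized counts in PBS cells and 3451, 2570.5 and 2743 after tBHP, and the log2 change was 0.61 (standard error 0.14, adjusted p = 0.00183). In cNSF cells it had 2069.6, 1886 and 1936 without tBHP and 2996, 3097 and 3181 after it (log2 change 0.65, adjusted p = 0.00102). In fNSF cells it had 1974, 1917 and 1918 without tBHP and 2658, 1785 and 3191 after it (log2 change 0.35, adjusted p = 0.0557). Replicate 2 of the fNSF cells after tBHP was below all 3 libraries without it, so these 2 groups overlapped.

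The scatter of PYCR1 and PHGDH went with the base composition of their transcripts. Their longest transcripts had a GC content of 61.8% and 58.3%, the highest of the 10 genes, and those of MTHFD2 and PSAT1 had 41.4% and 42.3%, the lowest. Among all genes tested, the tenth with the highest transcript GC content had a median log2 deviation from the group mean of -0.53 in fNSF replicate 2 after tBHP and of 0.45 in replicate 3, and the tenth with the lowest had 0.31 and -0.26. PYCR1 deviated by -0.47 and 0.37 in these 2 libraries, PHGDH by -0.35 and 0.27, MTHFD2 by 0.10 and -0.11, and PSAT1 by 0.18 and -0.17. Without replicate 2 the log2 change of PYCR1 in fNSF cells was 0.59 (adjusted p = 3.82e-05), and without replicate 3 it was 0.17 (adjusted p = 0.298). With the trend in GC content and transcript length removed from every library, PYCR1 changed by 0.30, 0.27 and 0.28 in PBS, cNSF and fNSF cells, smaller than before the removal in all 3, and passed the test in each. The same step gave 1.16, 1.18 and 1.15 for PHGDH and 1.70, 1.69 and 1.59 for MTHFD2, and all 10 genes kept their direction. It removes any part of a response that follows GC content or length, whatever its source.

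**Figure D3:**
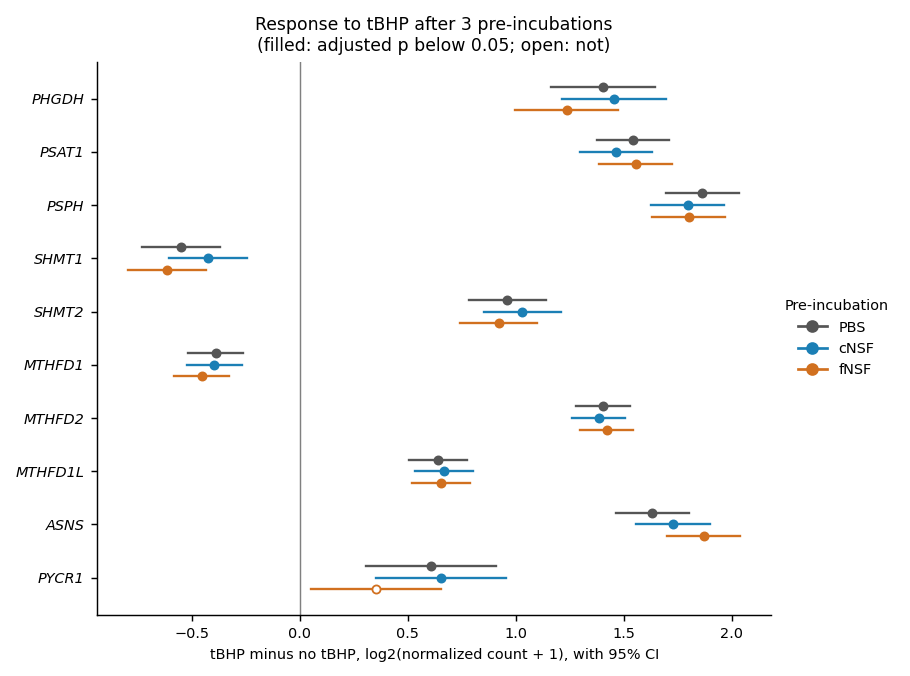
Change in log2(normalized count + 1) after tBHP in cells pre-incubated with PBS, cNSF or fNSF, with the 95% confidence interval from limma, for each of the 10 genes (filled points have an adjusted p below 0.05). PSPH changes by 1.86, 1.80 and 1.80 and MTHFD1 by -0.39, -0.40 and -0.46, and the open point is PYCR1 in fNSF cells.

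The responses were then compared between pre-incubations. Of the 10 genes, 0 passed the test for a difference between responses in any of the 3 pairs of pre-incubations, as did 0.0% of all genes tested in each pair. At an unadjusted p below 0.05 there were also 0 of the 10, and edgeR and DESeq2 on the recovered reads called 0. The share of all genes tested with such a p was 4.06% for cNSF against PBS cells, 6.88% for fNSF against PBS cells and 3.89% for cNSF against fNSF cells, so a count of 0 of the 10 is near the background. The differences between the responses in cNSF and PBS cells lay between -0.08 and 0.12, those between fNSF and PBS cells between -0.25 and 0.24, and those between cNSF and fNSF cells between -0.14 and 0.30. The interval was widest for PYCR1, whose response in cNSF cells exceeded that in fNSF cells by 0.30 (95% interval -0.12 to 0.73; -0.0071 with the GC and length trend removed), and narrowest for MTHFD2, at -0.04 (-0.21 to 0.14). For ASNS the response in fNSF cells exceeded that in PBS cells by 0.24 (95% interval -0.0039 to 0.48, adjusted p = 0.667). These 3 comparisons share libraries, so their values are not independent of each other.

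The HA preparations were compared with PBS and with each other at the same dose and times, without tBHP and after it, in 6 comparisons. Without tBHP, 0 of the 10 genes passed the test between cNSF and PBS, between fNSF and PBS or between cNSF and fNSF, and 0.0% of all genes tested passed in each. The model shares 1 spread per gene over all groups, and replicates scattered less without tBHP. The test is therefore strict for these comparisons, and the counts of 0 do not show that differences are absent. All 30 log2 differences lay between -0.19 and 0.09. The difference farthest from 0 was that of SHMT1 between cNSF and PBS, -0.19 (95% interval -0.37 to -0.0082, adjusted p = 1), and this was the only one of the 30 with an unadjusted p below 0.05 (0.0414), beside 0.921%, 0.796% and 1.51% of all genes tested in the comparisons of cNSF with PBS, fNSF with PBS and cNSF with fNSF. The SHMT1 values of the 2 groups did not overlap. With 3 libraries per group such a separation, like that of MTHFD2 below, can arise without any effect. The share of all genes that separate in this way was not counted. MTHFD2 was the gene whose fNSF libraries lay above all cNSF and PBS libraries, with a log2 difference between cNSF and fNSF of -0.12 (95% interval -0.24 to 0.0072, adjusted p = 1), and it passed only in a fit of those 2 groups alone (adjusted p = 0.0175), in which 7.16% of all genes tested passed.

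After tBHP, 0 of the 10 genes passed between cNSF and PBS (0.0% of all genes), 0 between fNSF and PBS (0.139% of all genes) and 0 between cNSF and fNSF (0.0% of all genes). edgeR and DESeq2 called 0 of the 10 in each of the 6 comparisons. Of all genes tested, DESeq2 called 6.74% between cNSF and fNSF after tBHP and 3.23% between fNSF and PBS after tBHP, where edgeR called 0.0% and 0.263%. At an unadjusted p below 0.05 there were 0, 1 and 2 of the 10 genes in these 3 comparisons after tBHP. Of all genes tested 1183 (8.64%), 3102 (22.7%) and 4412 (32.2%) had such a p, so the counts among the 10 are not above the background. Between cNSF and PBS the log2 differences were between -0.11 for PSAT1 and 0.10 for SHMT2. ASNS was higher in fNSF than in PBS cells by 0.23 (standard error 0.081, 95% interval 0.06 to 0.40, adjusted p = 0.14), with values of 6707, 6541 and 5740.2 against 4904, 5411 and 5845, which overlapped.

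For PYCR1, cNSF minus fNSF in tBHP-exposed cells was 0.32 (95% interval 0.02 to 0.62, adjusted p = 0.135) and for MTHFD2 it was -0.15 (-0.28 to -0.03, adjusted p = 0.104). PHGDH differed by 0.22 (-0.02 to 0.46), ASNS by -0.17 (-0.34 to 0.001) and PSAT1 by -0.15 (-0.32 to 0.02). For MTHFD1L the difference was 0.00077 (-0.13 to 0.13) and for MTHFD1 0.01 (-0.11 to 0.14), or 0.13 with the GC and length trend removed. Each interval uses 1 spread per gene taken over all groups, and replicates scattered more after tBHP. The intervals therefore do not set a firm bound on these differences. The PYCR1 values overlapped, and so did those of MTHFD2.

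Several of these values depended on single libraries, above all fNSF replicates 2 and 3 after tBHP. MTHFD1L moved most without cNSF replicate 3 (-0.05) or replicate 1 (0.06) after tBHP. Without fNSF replicate 3 after tBHP, 5 of the 10 genes passed between cNSF and fNSF, with PYCR1 at 0.50, PHGDH at 0.36, PSAT1 at -0.23, ASNS at -0.24 and MTHFD2 at -0.21, and 3 passed between fNSF and PBS, with PYCR1 at -0.41, ASNS at 0.30 and MTHFD2 at 0.16. Without that library 5586 of all genes tested (40.8%) passed in the first comparison and 4024 (29.4%) in the second. Without fNSF replicate 2 after tBHP, 0 of the 10 passed in either, and PYCR1 and PHGDH differed between cNSF and fNSF by 0.09 and 0.05. With the GC and length trend removed the difference was -0.06 for PYCR1, -0.01 for PHGDH, 0.06 for MTHFD2 and -0.02 for PSAT1, and 0 of the 10 passed. The trend was fitted in each library, so a difference between groups that follows GC content or length is removed with it. The source of these differences was not tested.

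**Figure D4:**
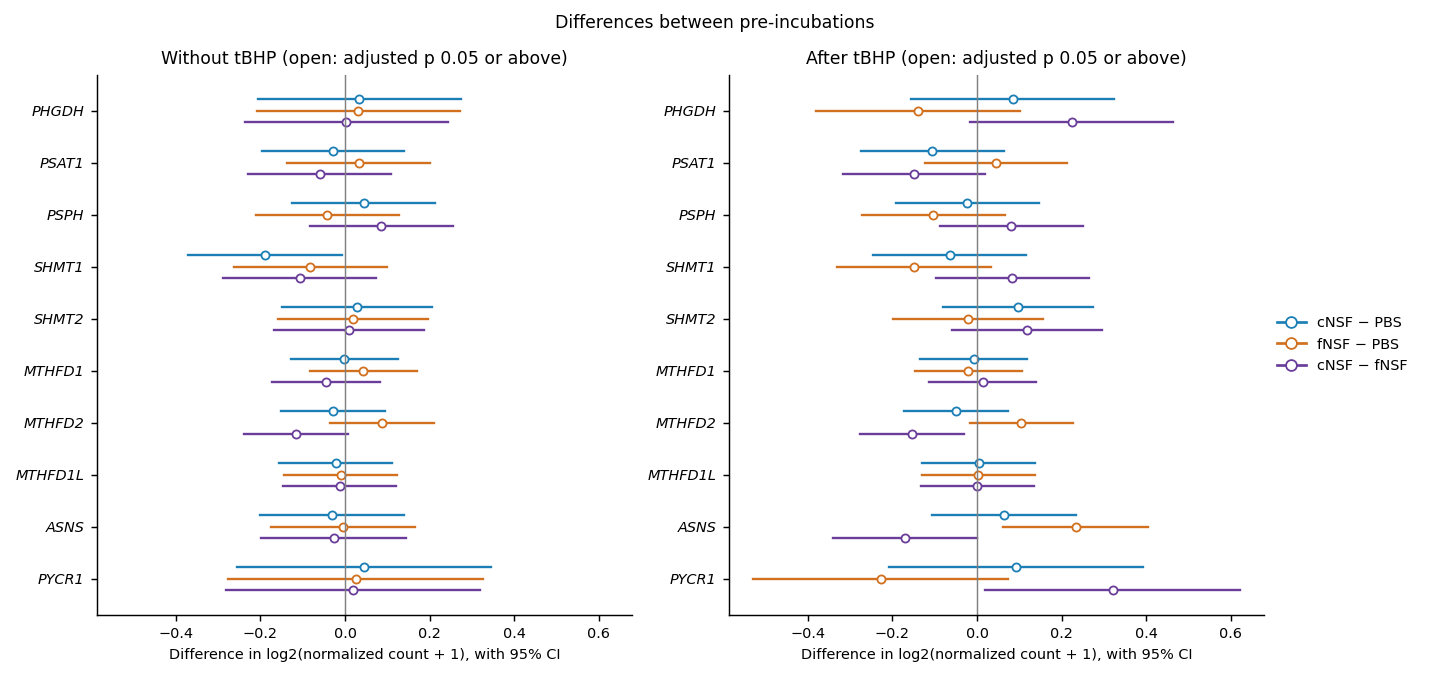
Differences in log2(normalized count + 1) between pre-incubations, with the 95% confidence interval from limma, for the 10 genes without tBHP and after it; no point has an adjusted p below 0.05. The values farthest from 0 are -0.19 for SHMT1 between cNSF and PBS without tBHP and 0.32 for PYCR1 between cNSF and fNSF after tBHP.

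The transcription factors and cofactors of the ATF4 pathway were the list in which every gene moved one way. All 8 (ATF4, ATF5, ATF3, DDIT3, CEBPB, CEBPG, TRIB3 and NUPR1) rose after tBHP in each of the 3 pre-incubations, with medians of 2.13, 2.06 and 1.78 on the log2 scale. The call of ATF5 in fNSF cells was lost, leaving 7 of the 8, in a fit of only the compared groups and without fNSF replicate 2 or 3 or, after tBHP, fNSF replicate 1 or 3. In PBS cells the mean normalized count of ATF3, a stress-induced factor of the same family, went from 37.5 ± 3.67 to 618 ± 45.7 (± SD over 3 libraries), and its log2 change was 4.01 (standard error 0.13, adjusted p = 3.26e-13). TRIB3, a pseudokinase that feeds back on ATF4, went from 282 ± 11.1 to 3802 ± 565 (log2 change 3.74, adjusted p = 2.35e-13). ATF4 itself, named for its place in the list and not for its change, went from 5504 ± 88.4 to 14518 ± 669.6 (log2 change 1.40, adjusted p = 5.76e-11), and its RNA does not report its protein.

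In 5 lists of pathways that feed on or next to the 10 genes, 54 genes were tested, of which 11 (20.4%) rose and 18 (33.3%) fell after tBHP with PBS, beside 24.2% and 26.9% of all genes tested. With cNSF 13 rose and 15 fell, and with fNSF 10 rose and 14 fell. Over the 29 alternatives these counts ranged from 10 to 14 risen and 14 to 23 fallen with PBS, from 10 to 13 and 14 to 20 with cNSF, and from 9 to 14 and 10 to 21 with fNSF. The counts of single lists are small and moved more, as given with each. Of 21 genes of the folate cycle and folate handling, 17 were tested, and 3 rose and 9 fell with PBS. With cNSF 3 rose and 8 fell, and with fNSF 1 rose and 8 fell, with medians over the 3 pre-incubations of -0.18, -0.15 and -0.25. Over the alternatives 2 to 3 rose and 8 to 10 fell with PBS. With cNSF 1 to 3 rose and 8 to 10 fell, with 1 risen when the GC and length trend was removed or when any cNSF replicate, or cNSF replicate 1 or 2 after tBHP, was left out. With fNSF 1 to 3 rose and 6 to 11 fell, with 3 risen under edgeR and 2 under DESeq2, quantile normalization and without cNSF replicate 1 or 3 after tBHP. ALDH1L2, the mitochondrial enzyme that oxidizes formyl-folate, rose in PBS cells from 1772 ± 18.1 to 2679.6 ± 42.8 normalized counts (log2 change 0.60, adjusted p = 0.000887). The folate carrier SLC46A1 fell from 139 ± 7.66 to 68.1 ± 18.6 (log2 change -1.05, adjusted p = 9.36e-05), and SLC25A32, the mitochondrial folate carrier, from 1452 ± 65.2 to 809 ± 29.3 (log2 change -0.84, adjusted p = 3.28e-06). With the GC and length trend removed SLC25A32 fell by 0.47. The carrier that brings folate to mitochondria fell in the same libraries in which MTHFD2, MTHFD1L and SHMT2 rose.

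Of 13 genes that use serine or cleave glycine, 10 were tested, and in PBS cells 0 rose and 2 fell. These were DLD, the shared dehydrogenase subunit of glycine cleavage and of several mitochondrial complexes, from 1949 ± 38.5 to 1239 ± 117 normalized counts (log2 change -0.66, adjusted p = 2.37e-06), and SPTLC2, a subunit of the enzyme that joins serine to a fatty acid in sphingolipid synthesis, from 4339.8 ± 80.8 to 3667 ± 159.5 (log2 change -0.24, adjusted p = 0.0445). With the GC and length trend removed DLD fell by 0.24 and SPTLC2 by 0.09. The call of SPTLC2 was lost under 14 of the 29 alternatives, namely edgeR, no filter on low counts, and leaving out any 1 of the 9 libraries without tBHP, of PBS replicates 1 and 3 after tBHP or of fNSF replicate 1 after tBHP. In cNSF cells 1 rose and 2 fell, and in fNSF cells 0 rose and 1 fell. With the GC and length trend removed the risen counts were 1, 0 and 0 in PBS, cNSF and fNSF cells and the fallen counts 4, 2 and 2. In cNSF cells the risen count was 0 without cNSF replicate 3, with or without tBHP, and 2 with no filter, and the fallen count was 1 without cNSF replicate 3 after tBHP. In fNSF cells 2 fell without fNSF replicate 2 after tBHP.

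In the methionine cycle and transsulfuration list 11 of 13 genes were tested, and 3 rose and 3 fell in PBS cells. The 2 enzymes of transsulfuration, which joins homocysteine to serine and yields cysteine, rose from low counts. CTH, the second enzyme, went from 25.1 ± 4.28 to 134 ± 10.3 (log2 change 2.38, standard error 0.18, adjusted p = 9.66e-09), and CBS, the first, from 26.2 ± 4.59 to 91.8 ± 10.8 (log2 change 1.78, adjusted p = 9.01e-06). MAT2A, which makes S-adenosylmethionine, fell from 6689.9 ± 172 to 4388 ± 203 (log2 change -0.61), and AHCYL2 from 215 ± 23.7 to 166 ± 20.1 (log2 change -0.38, adjusted p = 0.0243). The AHCYL2 call was lost under 5 of the 29 alternatives, edgeR, quantile normalization and leaving out PBS replicate 3 or, after tBHP, PBS replicate 1 or 3. In cNSF and in fNSF cells 3 genes of this list rose and 2 fell. With the GC and length trend removed the risen counts were 5, 5 and 6 in PBS, cNSF and fNSF cells and the fallen counts 3, 2 and 3, and over all alternatives 3 to 6 rose and 1 to 3 fell. Only 1 fell in cNSF cells under edgeR, with no filter, without any 1 of the cNSF replicates or without cNSF replicate 2 after tBHP, and in fNSF cells in a fit of only the compared groups, without fNSF replicate 3 or without fNSF replicate 1 or 3 after tBHP.

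Of 12 genes around asparagine, aspartate and glutamate, 7 were tested, and 3 rose and 2 fell in each pre-incubation. Under every alternative 3 rose, and 3 fell in each pre-incubation with the GC and length trend removed, while 1 fell in fNSF cells in a fit of only the compared groups, without fNSF replicate 2 and without fNSF replicate 1 or 3 after tBHP. The transaminases GPT2, in mitochondria, and GOT1, in the cytosol, which move nitrogen between glutamate and alanine or aspartate, rose in PBS cells from 739 ± 24.3 to 2027 ± 126 (log2 change 1.45, adjusted p = 2.57e-10) and from 1096 ± 2.76 to 2648 ± 46.4 (log2 change 1.27, adjusted p = 5.07e-11). ASNSD1, an asparagine synthetase domain gene, fell from 1241 ± 47.7 to 681 ± 79.6 (log2 change -0.87, adjusted p = 6.91e-07), and by 0.46 with the GC and length trend removed.

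Of 12 genes of proline and ornithine metabolism, 11 were in the table and 9 were tested, and 2 rose and 2 fell in PBS cells. P4HA2, a collagen prolyl hydroxylase subunit, rose from 4341 ± 111 to 5869 ± 143 (log2 change 0.43, adjusted p = 1.73e-06). ALDH18A1, which makes the substrate of PYCR1 from glutamate, fell from 3613 ± 65.4 to 2580.2 ± 46 (log2 change -0.49, adjusted p = 1.42e-06). P4HA1 fell from 5755 ± 179.5 to 4784 ± 407 (log2 change -0.27, adjusted p = 0.0169), a direction that turned to 0.07 with the GC and length trend removed, and its call was also lost without PBS replicate 2 and without PBS replicate 1 after tBHP. In both HA pre-incubations 3 genes of this list rose and 1 fell. With the trend removed, 8 genes of this list could be tested, and 2, 2 and 4 rose and 3, 3 and 2 fell in PBS, cNSF and fNSF cells. Leaving out fNSF replicate 2 or 3 after tBHP gave 2 fallen in cNSF cells, as did quantile normalization and a fit of only the compared groups, and in fNSF cells 3 fell without fNSF replicate 3 after tBHP and 2 without PBS replicate 1 after tBHP. Across the 6 lists, limma called 0 of the 62 genes tested in any comparison between pre-incubations or between responses. In cNSF minus fNSF after tBHP, 20 of the 62 had an unadjusted p below 0.05 and DESeq2 called 7, in fNSF minus PBS after tBHP 14 had one and DESeq2 called 5, and edgeR called 0 in both. The share of all genes tested with such a p was 32.2% and 22.7%, and DESeq2 called 6.74% and 3.23% of them.

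**Figure D5:**
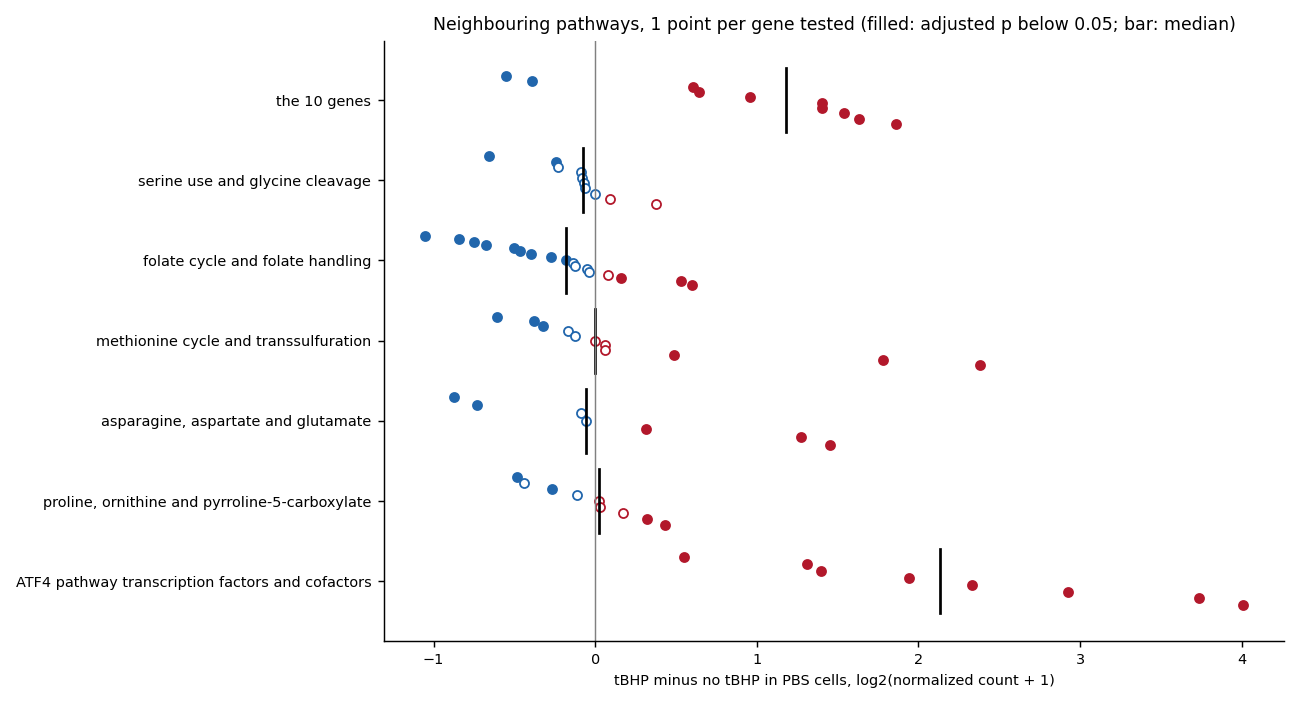
Change in log2(normalized count + 1) after tBHP in PBS cells for the 10 genes and for each tested gene of 6 neighbouring lists (filled points have an adjusted p below 0.05, bars are list medians). The medians are 1.18 for the 10 genes and 2.13 for the ATF4 pathway list, and the other 5 medians lie between -0.18 and 0.03.

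The genes whose 6 group means, centred on the log2 scale, lay nearest to those of a given gene were sought among the other genes with a mean of at least 100 (10312 candidates). The nearest profile to PHGDH was that of GPT2, with a root mean square difference of 0.027, to PSAT1 that of TXNRD1 (0.038), to PSPH that of TSC22D3 (0.043), to MTHFD2 that of HERPUD1 (0.040), to SHMT2 that of TALDO1 (0.019) and to ASNS that of MT-RNR2 (0.033). MTHFD1L was nearest to MFAP1 (0.019), PYCR1 to NUCB1 (0.023) and SHMT1 to FHOD3 (0.030). The likeness was measured over 6 group means that differ mainly by tBHP, and it describes levels only.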

How the data were processed

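Libraries were made with the TruSeq RNA V2 kit, which does not mark strand, and sequenced as single-end reads of 100 nt. Per the labels, the authors used Trimmomatic 0.32, STAR 2.5.2b and featureCounts (Subread 1.5.0-p3) on GRCh38.p7, and DESeq2. The annotation is not given in the sources used here. The values the authors deposited are a signal, reads over a size factor: in every library 100% of the values were whole multiples of 1 read (tolerance 0.1 read), and these reads were recovered. The 3 columns of the authors' own comparison (a p-value, a q-value and a ranking) were not used.

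Groups came from the labels. The 13686 genes with a mean of at least 10 were tested with limma 3.58.1 (R 4.3.3; log2(value + 1), which understates the changes of low genes, mean-variance trend, 1 coefficient per group, 12 comparisons, two-sided, Benjamini-Hochberg adjustment over all genes tested, threshold 0.05). The fits were tested on simulated data with known changes. Alternatives were edgeR 4.0.16 (quasi-likelihood) and DESeq2 1.42.0 on the recovered reads, other pseudocounts and filters, other scalings, a replicate block, only the compared groups, each library left out, and removal of a trend in transcript GC content and length (splines with 5 degrees of freedom, GENCODE release 29, 12532 genes). The genes, lists and tests were chosen with earlier results of these data known. All 10 genes are named, with up to 2 risen and 2 fallen genes per list, by size of change in PBS cells, and the nearest profile to each gene. Some genes that this rule names are not reported here.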

Additional observations from a re-analysis of the deposited data

How the results depend on the processing

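The 10 genes kept the direction of their tBHP response in all 3 pre-incubations under each of the 29 alternatives, and the calls changed for PYCR1 in fNSF cells alone. It passed under 7 of the 29 (edgeR, DESeq2, quantile normalization, the replicate block, GC and length trend removed, without PBS replicate 1 after tBHP and without fNSF replicate 2 after tBHP), so that 23 or 24 of the 30 responses rose and 6 fell. The number of the 10 genes called in cNSF minus fNSF without tBHP was 1 in a fit of only the compared groups. With each library left out in turn it ranged from 0 to 5 between cNSF and fNSF after tBHP and from 0 to 3 between fNSF and PBS after tBHP. Over all alternatives, the count of all genes called in these comparisons ranged from 0 to 980 (cNSF and fNSF, without tBHP), from 0 to 5586 (cNSF and fNSF, after tBHP), from 0 to 4024 (fNSF and PBS, after tBHP; 19 as reported), from 0 to 21 (fNSF and PBS, without tBHP), from 0 to 5 and from 0 to 4 (cNSF and PBS, after and without tBHP), and from 0 to 9, 1 and 0 for the differences between responses.

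Differences between cNSF and fNSF after tBHP that changed sign, none of them called, were -0.0097 for PHGDH, -0.015 for SHMT2, 0.055 for MTHFD2, -0.016 for MTHFD1L and -0.060 for PYCR1 with the GC and length trend removed. With 1 library left out in turn, MTHFD1 ranged from -0.017 (without fNSF replicate 3 after tBHP) to 0.050 and MTHFD1L from -0.050 (without cNSF replicate 3 after tBHP) to 0.059. Between fNSF and PBS after tBHP, MTHFD2 was -0.050 and PYCR1 0.040 with the trend removed, and with 1 library left out PYCR1 ranged from -0.41 (without fNSF replicate 3 after tBHP) to 0.0072 (without fNSF replicate 2 after tBHP). The PYCR1 response in cNSF minus that in fNSF cells was -0.0071 with the trend removed. The cause was not tested. Same-numbered replicates mostly deviated little together (correlations of -0.119 to 0.333 over 45 pairs of libraries, median 0.034, 7 of them over 0.1), and the numbers were not taken as pairs. The highest were after tBHP, 0.333 between PBS and fNSF replicates 2 and 0.324 between cNSF and fNSF replicates 3. Differently numbered libraries were not compared in this way, so a shared deviation was not excluded. With the replicate block 10 of the 10 genes were called in the tBHP response of fNSF cells, 10 in each other tBHP response and 0 in every other comparison. The 3 replicates per group and the wider spread after tBHP limit what the comparisons between HA preparations can show.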
